A study of Mus musculus with 12 samples.

Results

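The genes described here encode the SR proteins and the hnRNPs, the kinases that phosphorylate SR proteins, and a few further regulators of splicing, in mouse erythroid precursor cells. Members were chosen by symbol: every gene named Srsf with a number or Hnrnp, and Tra2a, Tra2b, Clk1, Clk2, Clk3, Clk4, Srpk1, Srpk2, Rbfox2, Mbnl1, Mbnl2 and Snd1. The deposited tables hold 43 of them among 25097 genes: 11 Srsf genes, 20 Hnrnp genes, 2 Tra2 genes, 6 kinase genes and 4 others. Of these, 42 had enough counts to be tested, and Srsf12 did not. Another 2 symbols that match the rule, both of pseudogenes, were not analysed here.

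The cells are of the G1E-ER-GATA-1 line, and their RNA was read in 12 libraries, 3 in each of 4 groups. In all groups endogenous GATA-1 is missing and an estrogen receptor fusion of GATA-1 takes its place, which beta-estradiol makes active. Mutant cells, called Alas2 cis-element-mutant or double mutant in the labels, received 1 µM beta-estradiol with 1 mM 5-aminolevulinic acid (5-ALA), or 1 µM beta-estradiol alone. WT cells received 1 µM beta-estradiol or were left untreated. Treatments lasted 48 h. The product of Alas2 makes 5-ALA from glycine and succinyl-CoA in erythroid cells, and heme synthesis starts from it. Whether the mutant cells are 1 clone, and whether replicates are separate cultures, is not given in the sources used here, so the p-values measure the spread between these libraries, which may be technical.

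The libraries held 20309085 to 43548387 expected counts, and libraries of a group correlated across genes with Pearson's r of 0.99232 to 0.99488. Alas2 followed the labels, at 9.67 to 10.7 TPM in mutant cells given both agents, 4.87 to 10.2 TPM in mutant cells given estradiol alone, 3512 to 3543 TPM in treated WT cells and 4.76 to 6.19 TPM in untreated WT cells. TPM is a level scaled for transcript length and library. The 8 erythroid markers, among them the adult globin genes Hba-a1 and Hbb-bs, were all above 1 TPM in every group. They summed to 127000 to 133500 TPM in mutant cells with 5-ALA, 43110 to 45270 TPM in mutant cells without it, 129600 to 132100 TPM in WT cells with estradiol and 979 to 1038 TPM in untreated WT cells. Gata1, whose product the fusion replaces in these cells, is among the 8. It made up 437.5 to 450.4 TPM of the sum in untreated WT cells. None of 6 granulocyte and macrophage markers and none of 6 lymphocyte markers reached 1 TPM in any group. Of 6 mast cell markers none reached 1 TPM in either mutant group, 2 did in WT cells with estradiol and 1 in untreated WT cells. They summed to 0.6 to 3.61 TPM over the groups with estradiol and to 201 to 210.4 TPM in untreated WT cells. Of 5 fibroblast markers, 1 reached 1 TPM, in untreated WT cells alone. The 6 megakaryocyte markers, of which Ppbp was below 1 TPM throughout, summed to 221 to 225 TPM in mutant cells with 5-ALA, 153.5 to 155 TPM in mutant cells without it, 521 to 532 TPM in WT cells with estradiol and 193 to 198 TPM in untreated WT cells. The part of these cell type markers in the results below was not tested.

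SR proteins bind exons of nascent transcripts through RNA recognition motifs and recruit the splicing machinery through domains rich in arginine and serine, while many hnRNPs bind silencer elements and oppose exon inclusion. SRPK kinases phosphorylate SR proteins in the cytoplasm, which lets them enter the nucleus, and CLK kinases phosphorylate them in the nucleus. Many genes of both families make, beside coding transcripts, ones with a poison exon or a retained intron that can be destroyed by nonsense-mediated decay. Erythroid maturation is known for wide changes in splicing, among them in red cell membrane genes.

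Per length, both families stood at a lower summed level in all groups with estradiol than in untreated WT cells. The kinase sum was higher in those groups, with Clk1 as its largest part. The 11 Srsf genes summed to 2187 ± 87.2 TPM in mutant cells with 5-ALA, 2451 ± 44.1 TPM in mutant cells without it, 2325 ± 17.1 TPM in WT cells with estradiol and 4098 ± 19.1 TPM in untreated WT cells (mean ± SD, n = 3). The 20 Hnrnp genes summed to 5571 ± 182 TPM in mutant cells with 5-ALA, 6095 ± 34.8 TPM in mutant cells without it, 6535 ± 71.2 TPM in WT cells with estradiol and 11332 ± 62.8 TPM in untreated WT cells. The 6 kinase genes summed to 893 ± 37.7 TPM in mutant cells with 5-ALA, 960 ± 14.4 TPM in mutant cells without it, 1097 ± 22.7 TPM in WT cells with estradiol and 532 ± 15.0 TPM in untreated WT cells. Clk1 held 550 and 572 TPM of this sum in mutant cells with and without 5-ALA. It held 753 TPM in WT cells with estradiol and 162 TPM in untreated WT cells. Between the WT groups Clk3 and Clk4 were also higher with estradiol, and Clk2, Srpk1 and Srpk2 were lower per length. These sums carry no test, and TPM shifted over all genes between groups. On the log2(TPM + 1) scale the median change of all tested genes was -0.15 with 5-ALA in mutant cells. It was -0.23 with estradiol in WT cells and 0.12 in mutant against WT cells with estradiol. In library-scaled counts the median log2 change with 5-ALA was 0.02 over the tested Srsf genes and -0.09 over the Hnrnp genes. Over all tested genes it was 0.01. In bulk RNA, fewer cells of a kind and less RNA per cell cannot be told apart.

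**Figure D1:**
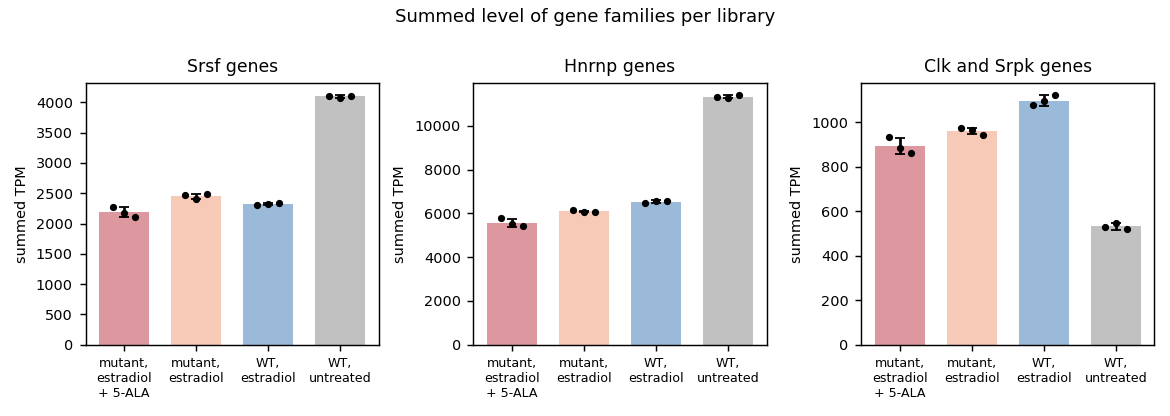
Summed TPM of the Srsf, Hnrnp and Clk and Srpk kinase genes in the 4 groups. Bars are group means, error bars 1 SD and points the 3 libraries. The Srsf and Hnrnp sums are highest in untreated WT cells, at 4098 and 11332 TPM, where the kinase sum is lowest, at 532 TPM. Clk1 holds 162 TPM of that kinase sum, and 753 TPM of the kinase sum in WT cells with estradiol.

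The order of the genes within the families also differed between groups. In WT cells with estradiol the highest levels per length were those of Hnrnpk (2521 ± 7.44 TPM), which binds C-rich RNA, Srsf5 (907 ± 21 TPM), the kinase gene Clk1 (753 ± 19.2 TPM) and Hnrnpf (586 ± 15.3 TPM), which binds runs of G. In untreated WT cells they were those of Hnrnpk (1729 ± 22.7 TPM), Hnrnpa1 (1506 ± 12.3 TPM), Hnrnpa2b1 (1245 ± 18.9 TPM) and Hnrnpf (1211 ± 6.13 TPM). Srsf5 was the most abundant Srsf gene in every group, with 784 to 858 TPM in mutant cells with 5-ALA, 891 to 1001 TPM in mutant cells without it, 892 to 931 TPM in WT cells with estradiol and 861 to 865 TPM in untreated WT cells. The Srsf5 values of mutant cells without 5-ALA overlapped those of WT cells with estradiol.

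Treated and untreated WT cells were compared to ask which members respond when GATA-1 activity is switched on. All 42 tested members passed the test: 13 were higher with estradiol, where 43.3% of the 12115 tested genes were, and 29 were lower, where 46.4% were. With a change of at least 1.5-fold, 7 members were higher, against 34.7% of all genes, and 21 lower, against 37.9%. The median log2 fold change was -0.59 over the tested members, -0.80 over the Srsf genes, -0.75 over the Hnrnp genes and -0.03 over all genes tested. By limma on log2(TPM + 1), 9 members were higher and 29 lower, and there the median of all tested genes lay at -0.23. On that scale 1 of the 42 called members, Clk2, had the opposite sign. After the all-gene median was taken off, 1 had it, Hnrnpu (0.06 in place of -0.49). Values in CPM are library-scaled counts after TMM scaling, tests are edgeR's quasi-likelihood F test with Benjamini-Hochberg adjustment over all tested genes, and a gene is said to rise or fall at an adjusted p below 0.05.

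Among SR protein genes, 7 of 10 fell, against 46.4% of all tested genes. Those of the small SR proteins that also act in mRNA export fell most. Srsf7 stood at 43.7, 42.9 and 39.9 CPM in WT cells with estradiol, against 325.5, 304.5 and 327 CPM in untreated WT cells. Srsf3 stood at 96.6, 97.4 and 96.8 CPM with estradiol, against 579.8, 556 and 582.5 CPM without it. The groups were 7.55-fold apart for Srsf7 (log2 fold change -2.92, SE 0.0359, adjusted p = 1.01e-31) and 5.91-fold apart for Srsf3 (-2.56, SE 0.0270, adjusted p = 4.75e-35). Both genes were chosen among members whose treated and untreated libraries did not overlap. Srsf2, which encodes SC35, a protein of nuclear speckles, fell by 1.35 on the log2 scale and Srsf1, the founding family member, fell by 1.17. Smaller falls were those of Srsf10, an SR protein that represses splicing when dephosphorylated (-0.82), Srsf9 (-0.78) and Srsf6 (-0.45). The 3 that rose did so by less than 1.5-fold: Srsf4 by 0.47, Srsf5 by 0.31 and Srsf11 by 0.23 on the log2 scale. Per length Srsf11 barely differed, at 288 ± 5.03 TPM with estradiol and 287 ± 6.41 TPM without it. Exons of Srsf2 overlap those of Mettl23 and Mfsd11 on the opposite strand. Srsf12 had 2 counts in each WT library with estradiol and 1 in each untreated one, too few for a comparison. The SR-like genes Tra2b and Tra2a, which promote exon inclusion, fell by 0.72 and 0.14.

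Among hnRNP genes, 16 of 20 fell, against 46.4% of all tested genes, and the A/B and D groups held the largest falls. Hnrnpa1, which encodes the best known silencer-binding hnRNP, stood at 157, 158 and 158 CPM in WT cells with estradiol, against 1398, 1379 and 1446 CPM in untreated WT cells. This 8.91-fold difference was the largest fall among members of at least 10 CPM (log2 fold change -3.15, SE 0.0272, adjusted p = 3.97e-37). Hnrnpd, whose product AUF1 binds AU-rich elements of unstable mRNAs, stood at 77.4, 80.95 and 83.8 CPM with estradiol, against 406, 385 and 409.7 CPM without it (-2.31, SE 0.0308, adjusted p = 1.66e-31). Hnrnpa0 stood at 58.9, 56.0 and 60.98 CPM with estradiol, against 228, 204 and 209 CPM without it (-1.87, SE 0.0580, adjusted p = 7.86e-12). Within each group the libraries of these 3 genes lay close together, and the rule that named them required groups that do not overlap. Hnrnpa3 (-1.69), Hnrnpdl (-1.56), Hnrnpab (-1.48) and Hnrnpa2b1 (-1.27) fell as well, so that every A/B and D gene was lower with estradiol. Exons of Hnrnpab overlap those of Phykpl on the opposite strand.

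The 4 hnRNP genes that rose were Hnrnph2, Hnrnph3, Hnrnpk and Hnrnpl. Hnrnph2 stood at 271, 276 and 273 CPM with estradiol, against 123, 119.6 and 129 CPM without it (log2 fold change 1.14, SE 0.0276, adjusted p = 8.38e-26). Its close relatives Hnrnph1 and Hnrnpf, whose products bind the same G-rich elements, moved the other way, by -1.17 and -0.87. Hnrnpk, the most abundant member per length in both WT groups, stood at 1872, 1896 and 1873 CPM with estradiol, against 1167, 1136 and 1198 CPM without it (0.69, SE 0.0234, adjusted p = 5.84e-22). Hnrnpl, which binds CA repeats, rose by 0.25, while its paralog Hnrnpll, known for exon skipping in Ptprc of T cells, fell by 1.08. The smallest falls of the family were those of Hnrnpc (-0.10), which binds U tracts, Hnrnpul1 (-0.17) and Hnrnpul2 (-0.28). Close paralogs and processed pseudogenes can share reads in the authors' counting, so values of Hnrnpa1, Hnrnpa3, Hnrnph1 and Hnrnph2 are uncertain to that extent.

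All CLK genes rose and both SRPK genes fell, where 43.3% of all tested genes rose and 46.4% fell. For Clk2 the direction turned on the TPM scale (72.2 ± 3.21 TPM with estradiol, 75.1 ± 5.46 TPM without it). Clk1 stood at 833, 841 and 856 CPM in WT cells with estradiol, against 155, 155 and 154 CPM in untreated WT cells. It had the largest rise of any tested member, 5.45-fold (log2 fold change 2.45, SE 0.0274, adjusted p = 2.25e-34), and its libraries lay within narrow ranges in both groups. Clk4 stood at 146.5, 147 and 152 CPM with estradiol, against 67.3, 67.7 and 70.9 CPM without it (1.11, SE 0.0313, adjusted p = 4.46e-24). Clk3 stood at 91.7, 91.0 and 93.0 CPM with estradiol, against 46.95, 47.3 and 46.5 CPM without it (0.97, SE 0.0313, adjusted p = 1.45e-22). Clk2 rose by 0.28 in counts. The cytoplasmic kinases went the other way: Srpk1 had 77.4 ± 2.89 CPM with estradiol and 192 ± 3.32 CPM without it (-1.31), and Srpk2 had 37.3 ± 0.723 CPM with estradiol and 51.6 ± 0.111 CPM without it (-0.47). Exons of Clk3 overlap those of Edc3, and exons of Srpk2 those of Kmt2e, on the opposite strand, and whether the counting used strand is not given in the sources used here.

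Of the other regulators, the Mbnl genes rose and Snd1 and Rbfox2 fell. Mbnl2 stood at 79.7, 79.7 and 80.7 CPM with estradiol, against 41.2, 40.0 and 41.7 CPM without it (log2 fold change 0.96, SE 0.0333, adjusted p = 9.13e-22). Mbnl1, whose product drives splicing patterns of mature tissues, had 809 ± 8.93 CPM with estradiol and 599 ± 12.8 CPM without it (0.43). Snd1, which encodes a nuclease-like Tudor protein that binds splicing and transcription factors, stood at 57.2, 58.7 and 59.9 CPM with estradiol, against 215, 204 and 208 CPM without it (-1.84, SE 0.0306, adjusted p = 5.31e-30). Rbfox2, known for promoting exon inclusion in the red cell membrane gene Epb41, had 1, 0 and 5 counts in the WT libraries with estradiol, 6 in all, against 203, 135 and 227 counts, 565 in all, in the untreated ones. Per count of the libraries this is a 94.7-fold lower share, with an exact 95% interval of 43.2 to 259 that covers counting error only. In the mutant libraries it had 10 counts with 5-ALA and 7 without it, so differences among the groups with estradiol were not detectable at this depth.

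**Figure D2:**
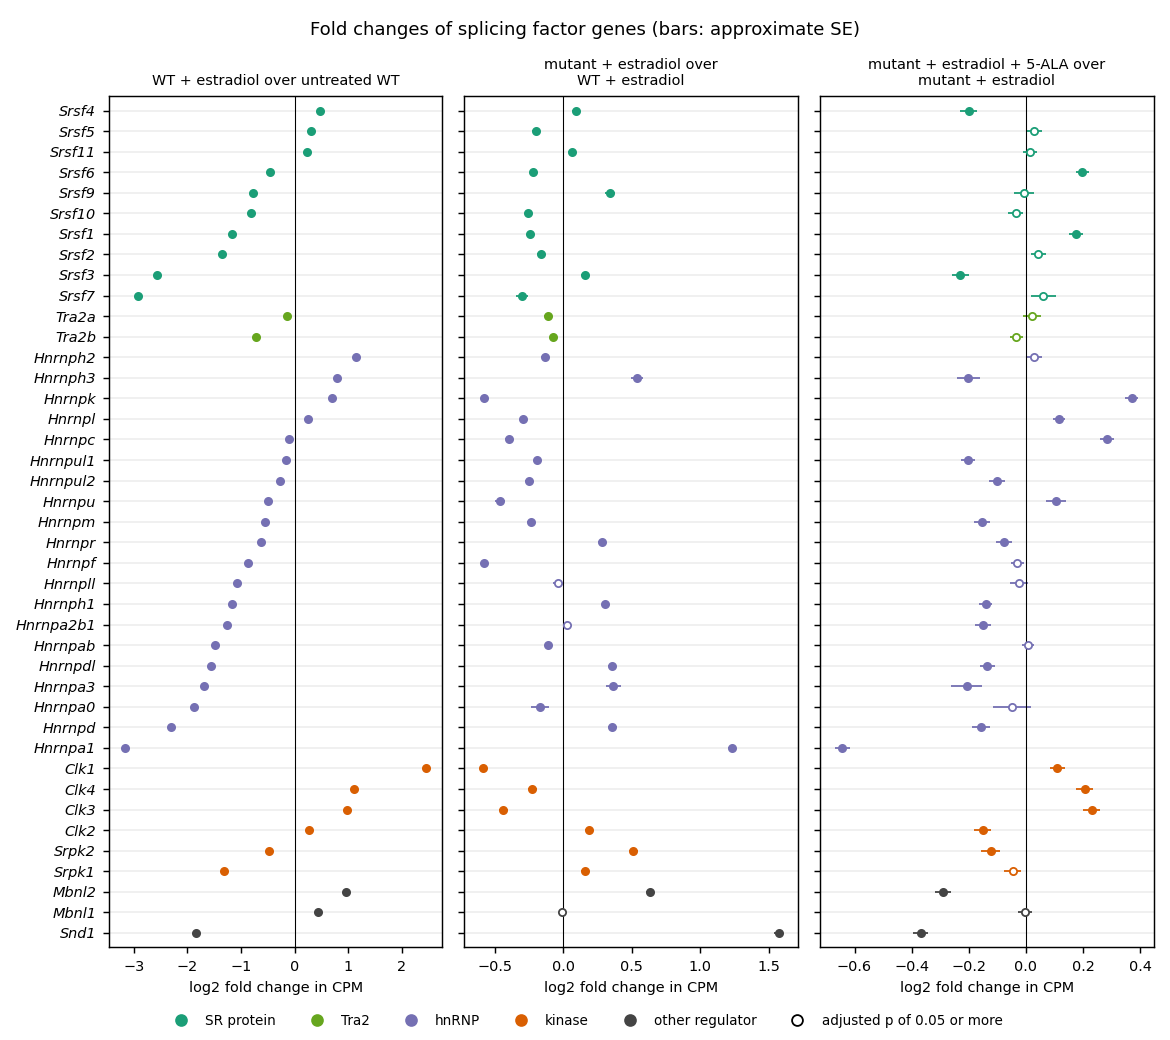
Log2 fold changes in CPM of 41 of the 42 tested members (Rbfox2, at 6 counts with estradiol, is left out) in 3 comparisons, each panel with its own axis. Points are coloured by role, bars are the approximate SE and open points did not pass the test; in the first panel Hnrnpa1 is lowest at -3.15 and Clk1 highest at 2.45.

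Because the fusion protein is a GATA factor, promoters of members were searched for its binding word. The hexamers AGATAA and TGATAA, and either of them with a final G, were searched on both strands of the 300 bases from 250 before to 50 after each start site in RefSeq (GRCm38.p6), where 39 of the 43 members matched by symbol. At least 1 of these words lay in 8 of the 54 promoters of members (14.8%), against 9778 of all 32851 promoters (29.8%). Neighbouring words can overlap by up to 2 bases, and a promoter with several counts once. The promoters below are those of the 3 members that fell most among those of at least 10 CPM, and of 2 members with a match, Srsf1 among those that fell and Hnrnph2 among those that rose. They lie at chr15:103240147-103240446 on the plus strand for Hnrnpa1, chr17:80207256-80207555 on the minus strand for Srsf7, chr17:29032410-29032709 on the plus strand for Srsf3, chr11:88047123-88047422 on the plus strand for Srsf1 and chrX:134600929-134601228 on the plus strand for Hnrnph2. Capitals mark the matches, and lower case letters the rest.
Hnrnpa1: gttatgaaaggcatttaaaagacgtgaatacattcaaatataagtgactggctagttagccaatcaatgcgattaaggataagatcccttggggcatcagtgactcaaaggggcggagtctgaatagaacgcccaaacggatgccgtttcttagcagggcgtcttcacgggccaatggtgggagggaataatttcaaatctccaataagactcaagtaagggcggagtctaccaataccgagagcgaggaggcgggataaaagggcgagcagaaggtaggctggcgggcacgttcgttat
Srsf7: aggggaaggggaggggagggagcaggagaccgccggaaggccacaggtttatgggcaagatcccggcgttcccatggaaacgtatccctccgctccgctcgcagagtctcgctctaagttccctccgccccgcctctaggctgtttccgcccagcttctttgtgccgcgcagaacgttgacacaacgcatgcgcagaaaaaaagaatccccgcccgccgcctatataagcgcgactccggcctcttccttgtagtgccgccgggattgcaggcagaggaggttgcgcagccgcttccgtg
Srsf3: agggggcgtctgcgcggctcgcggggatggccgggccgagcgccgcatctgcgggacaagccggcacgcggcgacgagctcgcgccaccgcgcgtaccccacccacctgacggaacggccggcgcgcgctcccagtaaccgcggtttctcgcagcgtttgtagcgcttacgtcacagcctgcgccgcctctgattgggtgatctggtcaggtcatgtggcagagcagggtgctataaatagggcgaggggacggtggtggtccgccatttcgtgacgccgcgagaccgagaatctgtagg
Srsf1: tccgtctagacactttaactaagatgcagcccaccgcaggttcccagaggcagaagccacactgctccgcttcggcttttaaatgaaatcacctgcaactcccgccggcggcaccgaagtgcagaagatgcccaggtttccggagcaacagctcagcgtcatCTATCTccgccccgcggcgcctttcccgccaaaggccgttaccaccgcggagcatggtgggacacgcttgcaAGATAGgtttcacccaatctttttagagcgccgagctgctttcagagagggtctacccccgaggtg
Hnrnph2: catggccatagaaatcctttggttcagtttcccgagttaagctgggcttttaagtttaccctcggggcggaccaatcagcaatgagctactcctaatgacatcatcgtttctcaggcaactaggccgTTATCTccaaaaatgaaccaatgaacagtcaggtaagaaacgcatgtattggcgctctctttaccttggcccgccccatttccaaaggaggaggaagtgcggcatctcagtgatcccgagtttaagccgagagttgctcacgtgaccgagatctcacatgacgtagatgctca
In Srsf1 a match on the minus strand starts 88 bases before the start site and one on the plus strand 16 bases before it. In Hnrnph2 a match on the minus strand starts 123 bases before it. The windows of Hnrnpa1, Srsf7 and Srsf3 held none of these words. A match here describes letters only, and no binding was measured.

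The comparison of mutant with WT cells, both with estradiol, sets cells in which Alas2 was not induced beside cells in which it was. No group held untreated mutant cells. Differences that were there before estradiol therefore cannot be told apart from later ones. Of the 42 tested members 16 were higher in mutant cells, where 35.1% of all tested genes were, and 22 were lower, where 33.6% were. With at least 1.5-fold, 3 were higher (13.1% of all genes) and none was lower by edgeR (12.9%). At an unadjusted p below 0.05 the count lower by 1.5-fold was also 0, and by DESeq2 at an adjusted p below 0.05 it was 3. The TPM scale gave another balance, with 21 members higher and 8 lower by limma on log2(TPM + 1), and there the median of all tested genes lay at 0.12 in place of -0.01. On that scale 9 of the 38 members called in counts had the opposite sign, and 1 of them, Tra2b, still had it after the all-gene median was taken off.

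Snd1 and Hnrnpa1 stood furthest above WT. Snd1 stood at 168, 174 and 179 CPM in mutant cells with estradiol, against 57.2, 58.7 and 59.9 CPM in WT cells with estradiol (log2 fold change 1.57, SE 0.0311, adjusted p = 1.13e-26). Hnrnpa1 stood at 366, 363 and 382 CPM in mutant cells, against 157, 158 and 158 CPM in WT cells (1.23, SE 0.0263, adjusted p = 7.83e-26). Both were chosen among members whose mutant and WT libraries did not overlap. Hnrnpa1 thus differed 2.34-fold between mutant and WT cells and 8.91-fold between treated and untreated WT cells, comparisons that share the WT libraries with estradiol. Mbnl2 had 124 ± 2.77 CPM in mutant cells and 80.0 ± 0.564 CPM in WT cells (0.63). Hnrnph3 (0.54), Srpk2 (0.51), Hnrnpa3 (0.37), Hnrnpd (0.36) and Hnrnpdl (0.36) were higher by less than 1.5-fold. Exons of Hnrnph3 overlap those of Rufy2, and those of Mbnl2 overlap Gm26679, on the opposite strand.

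Members lower in mutant cells, as 33.6% of all tested genes were, included 3 of the 4 CLK genes and the most abundant hnRNP gene. Clk1 stood at 576, 559 and 553 CPM in mutant cells, against 833, 841 and 856 CPM in WT cells with estradiol (log2 fold change -0.58, SE 0.0256, adjusted p = 2.83e-18). Hnrnpk stood at 1257, 1272 and 1250.0 CPM in mutant cells, against 1872, 1896 and 1873 CPM in WT cells (-0.58, SE 0.0234, adjusted p = 4.1e-19). Hnrnpf stood at 446, 444 and 447 CPM in mutant cells, against 664, 675 and 659 CPM in WT cells (-0.58, SE 0.0233, adjusted p = 3.63e-19). These 3 were 1.499-fold, 1.493-fold and 1.493-fold lower, just short of the 1.5-fold limit. Hnrnpu, which encodes a scaffold protein of chromatin and RNA, was lower by 0.46, Clk3 by 0.44 and Hnrnpc by 0.40 on the log2 scale. Clk4 was lower by 0.22 in counts, with the opposite sign on the TPM scale (161 ± 3.64 TPM in mutant cells and 149 ± 1.54 TPM in WT cells). Clk2 was higher by 0.19. Among SR protein genes 4 were higher (35.1% of all tested genes) and 6 lower (33.6%), between -0.30 for Srsf7 and 0.34 for Srsf9. Exons of Hnrnpf, Hnrnpk and Hnrnpu overlap those of 4933440N22Rik, Rmi1 and Cox20 on the opposite strand.

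The comparison of mutant cells with estradiol and 5-ALA against mutant cells with estradiol asks what the heme precursor changes. Of the 42 tested members 9 were higher with 5-ALA, against 21.6% of all genes, and 17 were lower, against 21%. Past 1.5-fold none was higher by edgeR, against 4.36% of all genes, and 1 was lower, Hnrnpa1, against 2.08%. The count higher by 1.5-fold was also 0 at an unadjusted p below 0.05 and 0 by DESeq2. The TPM scale gave 2 members higher and 34 lower, and there the median of all tested genes lay at -0.15 in place of 0.01. On that scale 4 of the 26 called members had the opposite sign, and none had it after the all-gene median was taken off.

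Hnrnpa1 fell most. It stood at 239.8, 231 and 240.4 CPM with 5-ALA, against 366, 363 and 382 CPM without it (log2 fold change -0.64, SE 0.0256, adjusted p = 2.24e-18). Snd1 stood at 132.5, 132 and 139 CPM with 5-ALA, against 168, 174 and 179 CPM without it (-0.37, SE 0.0280, adjusted p = 6.07e-12). Mbnl2 fell by 0.29, Srsf3 by 0.23 and Hnrnpa3 by 0.21 on the log2 scale. The largest rise was that of Hnrnpk, at 1659, 1620.0 and 1608 CPM with 5-ALA, against 1257, 1272 and 1250.0 CPM without it (0.37, SE 0.0233, adjusted p = 8.46e-14). Hnrnpc had 508 ± 7.10 CPM with 5-ALA and 416 ± 9.98 CPM without it (0.29, SE 0.0245, adjusted p = 9.06e-11). These 5 falls and both rises were chosen among members whose libraries with and without 5-ALA did not overlap. Clk3 rose by 0.23, Clk4 by 0.21, Srsf6 by 0.20 and Clk1 by 0.11 in counts. Of these, Clk4 and Clk1 had the opposite sign on the TPM scale, and Clk3 and Srsf6 did not pass the test there. Srpk1 (83.4 ± 2.45 CPM with 5-ALA, 86.1 ± 0.724 CPM without it), Tra2a, Tra2b and Mbnl1 were not called.

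Mutant cells given both agents had 13 members higher than WT cells with estradiol, against 33.3% of all genes, and 23 lower, against 29%. With at least 1.5-fold, 2 were higher (9.6% of all genes) and 1 was lower (8.72%). Of the higher ones, Hnrnpa1 lay at the limit (1.501-fold), and under several alternatives 1 member was higher in place of 2, among them DESeq2, the replicate block and leaving out replicate 1 of mutant cells with 5-ALA. Without replicate 3 of that group none was lower, and without replicate 3 of WT cells with estradiol 3 were higher. Snd1 stood at 132.5, 132 and 139 CPM in mutant cells with 5-ALA, against 57.2, 58.7 and 59.9 CPM in WT cells (log2 fold change 1.202, SE 0.0317, adjusted p = 2.56e-23). Hnrnpa1 stood at 239.8, 231 and 240.4 CPM, against 157, 158 and 158 CPM in WT cells (0.59, SE 0.0265, adjusted p = 9.4e-18). Hnrnpf stood at 447, 433 and 429.5 CPM, against 664, 675 and 659 CPM in WT cells (-0.61, SE 0.0233, adjusted p = 1.81e-19). The 3 groups with estradiol had no overlapping libraries for Snd1 and Hnrnpa1, which the rule that named them in these comparisons required. For Hnrnpf the mutant groups overlapped each other. Clk1 was lower by 0.47, Hnrnpul1 by 0.39, Hnrnpm by 0.39, Hnrnpu by 0.35 and Hnrnpk by 0.21 on the log2 scale. Srpk2 (0.39), Mbnl2 (0.34) and Hnrnph3 (0.34) were higher. Exons of Hnrnpm overlap those of March2 on the same strand. These 3 comparisons of cells with estradiol share groups, so their values are not independent.

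**Figure D3:**
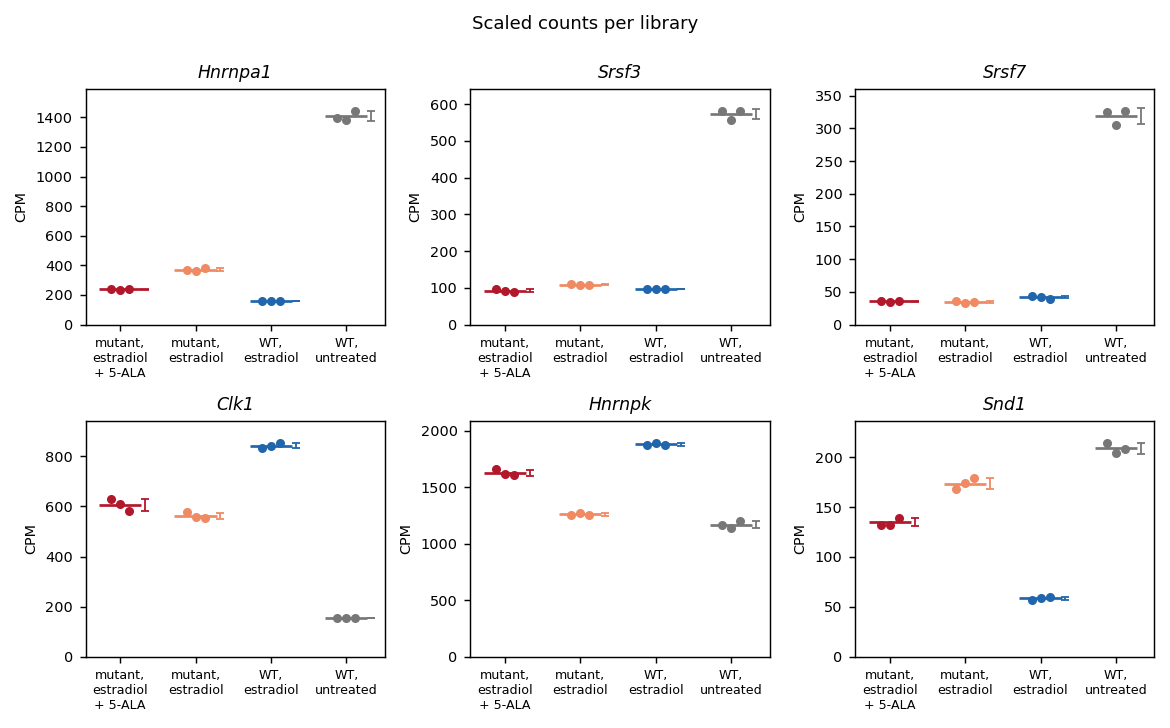
CPM of 6 members in every library of the 4 groups, with group means as lines and 1 SD as bars beside them. In Hnrnpa1 and Snd1 the mutant cells lie above WT cells with estradiol, at 363 to 382 and 168 to 179 CPM without 5-ALA; in Hnrnpk and Clk1 they lie below.

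The tables also give a length for each gene, the mean length of its transcripts weighted by their estimated abundance. It moves when reads shift between transcripts of different length, so it was tested on the log2 scale with limma for 36 members among 8266 genes in which it varied. A change was called at an adjusted p below 0.05 and a ratio of at least 1.1 in either direction. Srsf7, Clk3, Hnrnpa0, Hnrnpul2, Srpk2 and Tra2a had 1 constant length and could not be tested. The files do not give the levels of single transcripts. The annotation behind the lengths is not that of GENCODE M21, where 63.9% of single-transcript genes had the deposited length to within 0.01 base, so lengths are not assigned to transcripts here. Of the 42 members with every transcript in M21, 34 had all their lengths inside its range. Those of Hnrnpa2b1, at 1998 to 2395 bases, lay above its longest M21 transcript, of 1728 bases.

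With estradiol, 3 members in WT cells had a longer weighted length, against 5.61% of all genes, and 6 a shorter one, against 6.32%. Srsf1 stood at 1525, 1507 and 1506 bases in WT cells with estradiol, against 2478, 2488 and 2432 bases in untreated WT cells (a change of -38.7%, adjusted p = 9.41e-09). Hnrnpu stood at 2194, 2135 and 2101 bases with estradiol, against 3321, 3318 and 3099 bases without it (-33.9%, adjusted p = 6.86e-06). Hnrnph1 (-21.9%), Hnrnpa2b1 (-15.9%), Srpk1 (-14.3%) and Hnrnpk (-9.2%) were shorter too. Srsf3 went the other way, at 2022, 2038 and 2039 bases with estradiol, against 1619, 1607 and 1576 bases without it (27% longer, adjusted p = 2.29e-05). Hnrnpa3 was 25.2% longer, with 1 treated library, at 2403 bases, below the 2666 and 2652 bases of the others, and Clk4 was 13.9% longer. The groups did not overlap in any of these 9 genes, nor in some that were not called, such as Hnrnpm, Hnrnpr and Srsf5. The share of all tested genes without overlap was not counted.

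TPM divides by this length and is also scaled over the whole library, so such members changed by different amounts in CPM and in TPM. Length is not the only source of the gap. Srsf7, whose length is constant, had a log2 fold change of -2.92 in counts and -3.165 on the log2(TPM + 1) scale. Srsf1 was 2.24-fold lower with estradiol in CPM and 1.66-fold lower in TPM (274 ± 2.68 TPM with estradiol, 455 ± 6.43 TPM without it). Srsf3 was 5.91-fold lower in CPM and 9.23-fold lower in TPM (73.5 ± 0.454 TPM with estradiol, 678 ± 9.50 TPM without it). Hnrnpu was 1.41-fold lower in CPM and 1.13-fold lower in TPM, at 275 ± 9.99 TPM with estradiol and 310 ± 13.0 TPM without it. The median log2 fold change of all tested genes was itself -0.23 on the log2(TPM + 1) scale, below the value of Hnrnpu there (-0.17).

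Among cells with estradiol, fewer lengths differed. In mutant against WT cells 3 members were longer (1.51% of all genes) and 1 was shorter (0.895%). Snd1 was the shorter one, at 1384, 1561 and 1464 bases in mutant cells, against 2565, 3002 and 2684 bases in WT cells with estradiol (-46.5%, adjusted p = 0.000203). On the TPM scale Snd1 was 6.44-fold higher (211 ± 10.8 TPM in mutant cells, 32.8 ± 2.37 TPM in WT cells). In counts it was 2.97-fold higher. Besides the length, the median log2 fold change of all tested genes lay at 0.12 on the log2(TPM + 1) scale. Hnrnpa2b1 was 14.5% longer in mutant cells, Hnrnpk 12.7% and Srpk1 12.2%. Hnrnpk stood at 1327, 1324 and 1309.7 bases in mutant cells, against 1163, 1183 and 1167 bases in WT cells with estradiol. The Srpk1 call was lost without 1 library each of either group (adjusted p = 0.0524 without WT replicate 1 and 0.0522 without mutant replicate 1).

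Adding 5-ALA to mutant cells changed no member's length by this rule (limma, 0 of 36), against 0.0363% of all genes longer and 0.0726% shorter. At an unadjusted p below 0.05 and with no minimum ratio, 8 of the 36 members changed, against 9.21% of all genes. With the ratio kept, 2 of the 36 did, and that share of all genes was not counted. The test on linear lengths also called none. Against WT cells with estradiol, mutant cells with 5-ALA had 1 longer member, Hnrnpk (11.7%, adjusted p = 0.000169; 0.617% of all genes were longer), and 1 shorter, Snd1 (-39.2%, adjusted p = 0.00129; 0.46% were shorter). Snd1 stood at 1739, 1548 and 1728 bases in mutant cells with 5-ALA, against 2565, 3002 and 2684 bases in WT cells.

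**Figure D4:**
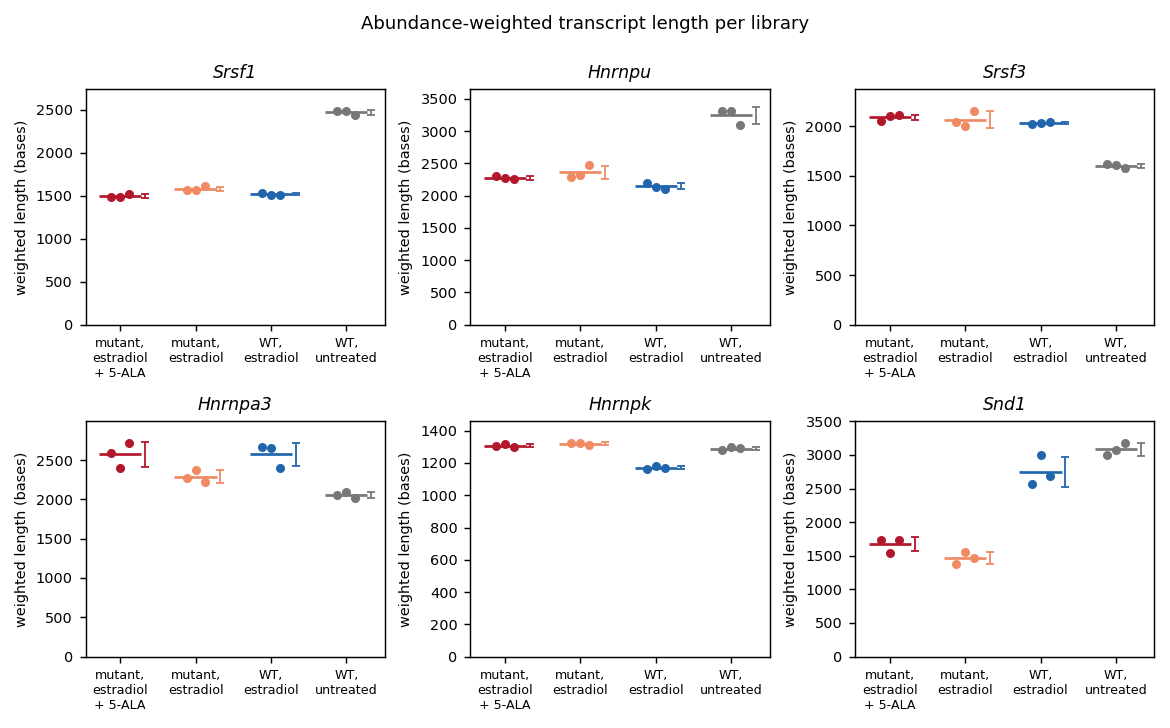
Abundance-weighted transcript length, in bases, of 6 members in every library of the 4 groups, with group means as lines and 1 SD as bars beside them. Srsf1 and Hnrnpu are longest in untreated WT cells (means of 2466 and 3246 bases), Srsf3 is shortest there (1601 bases), and Snd1 is short in both mutant groups (1672 bases with 5-ALA, 1470 bases without it).

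Other splicing genes, taken as lists, are set beside the members by their counts. Of all tested genes 43.3% were higher and 46.4% lower in WT cells with estradiol than without it. Of 75 core spliceosome genes, 12 (16%) were higher and 60 (80%) lower, with a median log2 fold change of -0.93, against -0.03 over all tested genes. The Sm and Sm-like genes Snrpd1, Snrpf and Lsm2 were among the lowest: Snrpd1, for example, had 14.3 ± 0.617 CPM with estradiol and 133 ± 1.48 CPM without it (-3.21). Of 29 genes of SR-related proteins 13 were higher and 13 lower (44.8% each), near the shares of all genes. Among them Rsrp1 had 638 ± 2.95 CPM with estradiol and 179 ± 4.16 CPM without it, while Pnn, which encodes pinin, had 119 ± 1.64 CPM with estradiol and 397 ± 2.01 CPM without it. Of 36 tested other splicing regulators 11 (30.6%) were higher and 21 (58.3%) lower, with Mbnl3 at 7.42 ± 0.476 CPM with estradiol and 60.9 ± 1.88 CPM without it (-3.04), against the direction of Mbnl1 and Mbnl2. Of 15 tested genes of nonsense-mediated decay and the exon junction complex 8 (53.3%) were higher and 6 (40%) lower, and the 3 largest changes were falls of the junction core genes Magoh (-1.46), Rbm8a (-1.12) and Eif4a3 (-1.05).

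In mutant against WT cells with estradiol, 35.1% of all tested genes were higher and 33.6% lower. The core spliceosome list had 19 genes (25.3%) higher and 32 (42.7%) lower, at a median of -0.02, against -0.01 over all tested genes. Prpf18, a second-step splicing factor gene, had 91.6 ± 1.61 CPM in mutant cells and 215 ± 3.68 CPM in WT cells (-1.23), and Snrnp25, of the minor spliceosome, had 42.4 ± 1.49 CPM in mutant cells and 17.3 ± 0.958 CPM in WT cells (1.29). Among SR-related genes 13 (44.8%) were higher and 11 (37.9%) lower, with Srrm2, a scaffold of nuclear speckles, at 914 ± 17.3 CPM in mutant cells and 1610 ± 5.73 CPM in WT cells (-0.82). Among other regulators 11 (30.6%) were higher and 19 (52.8%) lower, with Ptbp2 at 62.3 ± 1.84 CPM in mutant cells and 119 ± 2.35 CPM in WT cells (-0.92). Of the decay and junction genes 4 (26.7%) were higher and 11 (73.3%) lower. With 5-ALA, 19 core genes (25.3%) were higher and 13 (17.3%) lower than without it, near the 21.6% and 21% of all genes. Srrm2 had 1177 ± 2.85 CPM with 5-ALA and 914 ± 17.3 CPM without it (0.36), and Ptbp2 had 86.2 ± 1.66 CPM with 5-ALA and 62.3 ± 1.84 CPM without it (0.46).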

How the data were processed

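RNA was made into libraries with a TruSeq kit after TRIzol extraction, per the labels' protocols. Bowtie 1.1.1, RSEM 1.2.20, CASAVA 1.8.2 and mm10 stand in the submitters' processing notes. The sources used here do not give the annotation release, read length or strand setting. Per gene, the authors' tables hold the expected count of RSEM, per the file headers, in which shared reads are divided by likelihood. They also give TPM, scaled by the authors for length and library, and the abundance-weighted transcript length. Depth was 20309085 to 43548387 expected counts a library. Symbols came from a table that matched 24746 of 25097 identifiers, and positions from GENCODE M21.

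Expected counts were rounded, filtered with filterByExpr (12115 genes kept), scaled by TMM (factors 0.906 to 1.17) and fitted as 4 group means over 12 libraries with edgeR 4.0.16 in R 4.3.3, with robust estimation. The common biological coefficient of variation was 0.0334, so small differences pass the test. SEs were approximated by dividing the size of the log2 fold change by the root of its F statistic. Lengths were tested with limma 3.58.1. Both steps were also run on data simulated with the spread of these libraries, for estradiol in WT cells only. No result here rests on that run, and it does not cover the other comparisons. Same-numbered libraries did not vary together (correlations -0.104 to 0.067), so no pairing was used.

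Members and gene lists were chosen with earlier results of these data known. Named members were, per comparison, the 5 largest rises and falls among called members of at least 10 CPM whose groups did not overlap, the 3 most abundant Srsf and Hnrnp genes, all kinases, Tra2a, Tra2b, Rbfox2, Mbnl1, Mbnl2 and Snd1, and the 4 largest called length changes per direction. Other members, and members that went against their family, were named after their values were seen. From each list up to 3 called genes with the largest change were named. An item withheld for evaluation is not reported here. Alternatives were other scalings, filters, tests (DESeq2 1.42.0, limma on TPM), fits of 2 groups, a replicate block and leaving out each library.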

Additional observations from a re-analysis of the deposited data

How the results depend on the processing

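Totals of called members, both directions together, stayed within 1.5 times their value under every alternative run, but the split did not. On both TPM scales 9 higher and 17 lower members with 5-ALA became 2 and 34, and 22 lower members in mutant against WT cells became 8. Leaving out 1 library at a time gave 42 called members with estradiol in WT cells, 36 to 38 in mutant against WT cells, 23 to 26 with 5-ALA and 32 to 36 in mutant cells with 5-ALA against WT cells. Counts past 1.5-fold in mutant against WT cells were 3 by the reported fit. They were 6 with DESeq2 size factors, with the DESeq2 Wald test, with a mean of at least 10 CPM and on both TPM scales, log2(TPM + 1) and log2(TPM + 0.1), where all 6 were higher; with the others 3 were higher and 3 lower. On both TPM scales the count was 2 in place of 1 with 5-ALA, and 1 in place of 3 in mutant cells with 5-ALA against WT cells. There the count higher by 1.5-fold was 1 in place of 2 with DESeq2 size factors, the DESeq2 Wald test, at least 10 CPM, a fit of the 2 groups, the replicate block and both TPM scales. It was also 1 without replicate 1 of mutant cells with 5-ALA, and 3 without replicate 3 of WT cells with estradiol. With no minimum change, 18 members in place of 9 had a called length with estradiol in WT cells, 9 in place of 4 in mutant against WT cells and 4 in place of 2 in mutant cells with 5-ALA against WT cells. Clk4 with 5-ALA reversed on both TPM scales, at -0.094 and -0.095 (adjusted p = 0.0228 and 0.0231); the cause was not tested. Clk3 and Srsf6 with 5-ALA did not pass there (adjusted p = 0.462 to 0.464 and 0.967 to 0.968). The length of Srpk1 in mutant against WT cells did not pass in a fit of the 2 groups alone (adjusted p = 0.0906). The replicate block gave 42, 38, 26 and 35 called members in the 4 comparisons and 9, 4, 0 and 2 called lengths, and apart from that 1.5-fold count it moved no count of calls by over 1.5 times. Low counts limit Rbfox2 and Srsf12.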

Other observations

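The genes around Snd1 on chromosome 6 were looked up after its values were seen. Snd1 spans 28475139 to 28935162 (GRCm38, plus strand) and had 174 CPM in mutant cells with estradiol, against 58.6 CPM in WT cells with estradiol. Its nearest tested neighbour on the far side, Rbm28, which encodes a ribosome assembly factor, had 65.2 CPM in mutant cells and 65.7 CPM in WT cells (log2 fold change -0.01). On the near side Arf5, which encodes a small GTPase of the Golgi, had 76.5 CPM in mutant cells and 91.9 CPM in WT cells (-0.27), Gcc1 had 21.9 CPM in mutant cells and 22.7 CPM in WT cells, and Zfp800 had 60.1 CPM in mutant cells and 59.6 CPM in WT cells. Further out, Calu had 43.3 CPM in mutant cells and 36.3 CPM in WT cells (0.25), and Impdh1, which encodes an enzyme of guanine nucleotide synthesis, had 2.64 CPM in mutant cells and 13.4 CPM in WT cells (-2.36). The 10 tested genes looked up were taken in order along the chromosome on both sides, not by distance. None of them was as far above WT as Snd1 itself. Hilpda and Flnc among them had few counts, at 1.08 and 0.0 CPM in mutant cells.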
